A study of Mus musculus with 12 samples.

Results

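The 36 genes described here are carried by endothelial cells, the cells that line blood vessels, lymphatic vessels and the inner surface of the heart. They were chosen by gene symbol, as a list of junction, receptor, ligand, transcription factor and transport genes of endothelium, and all 36 were found among the 51826 genes of the count table. The table holds bulk poly(A)-selected RNA-Seq counts from atria and ventricles of 6 female FvB mice aged 10 weeks, 3 per genotype, which gave 12 libraries in 4 groups of 3. CUG960 +dox mice (V119, V120 and V123) carried the TREDT960I transgene, with 960 interrupted CTG repeats in human DMPK sequence, in the homozygous state together with a hemizygous MHCrtTA transgene. Control mice (V327, V333 and V334) carried the hemizygous MHCrtTA transgene alone. All mice of both genotypes received doxycycline chow from postnatal day 1. The transactivator is driven by an alpha myosin heavy chain promoter, so the repeat RNA is directed to cardiomyocytes and not to the endothelial cells that carry the genes measured here. The comparison therefore asks how endothelial transcripts stood in hearts whose cardiomyocytes made expanded CUG repeat RNA. Total counts ranged from 116127966 to 160676189 per library. In atria each control library was deeper than each CUG960 library, and in ventricles the order was the opposite.

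Endothelial cells hold their neighbors through VE-cadherin and claudin junctions, read growth factors through VEGF, Tie and apelin receptors, and keep their identity through ETS and SOXF transcription factors. In ventricular muscle most of them form capillaries that pass fatty acids and oxygen to cardiomyocytes. Atria hold relatively more endocardium and large vessel endothelium. In bulk tissue, fewer cells of a type and less RNA per cell cannot be told apart, and this holds for every level given below. Levels are relative to the whole library, so more RNA from other cells cannot be told apart from these either. The study reports larger hearts in CUG960 +dox mice than in controls, and the part of heart size in these levels was not tested.

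Several libraries stood apart in their content of other cells. The atrial library of control mouse V334 held 2767 CPM of erythroid transcripts (CPM, counts scaled to a common library size with TMM factors, summed over 7 genes), against 323 to 514 in the other 5 atrial libraries. It also held 830 CPM of the macrophage and leukocyte genes, against 406 to 499 in the others. The ventricular library of CUG960 mouse V123 held 55.9 CPM of Myl7, the atrial myosin light chain, against 0.19 and 0.30 in the other CUG960 ventricles and 5.0 to 19.3 in control ventricles. That was 1.97% of the mean level of Myl7 in control atria. The atrial library of control mouse V327 held 33.5 CPM of Myl2, the ventricular light chain, against 8.8 to 11.7 in the other atria, or 0.356% of its level in control ventricles. The ventricular library of V327 was high in platelet genes and the atrial library of V333 in adipocyte genes. The atrial library of CUG960 mouse V123 was low in epicardial genes, with a sum of 211 CPM against 304 to 350 in the other atrial libraries.

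In CUG960 hearts the endothelial genes stood lower than in controls in both chambers, by a modest amount. In atria the median fitted log2 fold change over the 36 genes was -0.34 (quartiles -0.48 and -0.19), against -0.01 over the 17650 genes tested. In ventricles it was -0.27 (quartiles -0.42 and -0.15), against -0.01 over 16909 genes tested. All 36 genes passed the filter on low counts in both chambers. The fitted value was below 0 for 35 of 36 genes in atria and for 31 of 36 in ventricles. With TMM scaling and edgeR no endothelial gene was higher by adjusted P in either chamber, whereas DESeq2 placed Apln higher in ventricles (adjusted P = 0.0151). The threshold was a Benjamini-Hochberg adjusted P under 0.05 in edgeR's quasi-likelihood test with a fold change of at least 1.5. In atria 6 of the 36 genes fell past it (Icam2, Lyve1, Pecam1, Nos3, Ednrb and Tek), where 2.12% of all genes tested were lower and 3.37% higher. In ventricles 2 fell past it (Cldn5 and Eng), where 1.76% of all genes tested were lower and 3.0% higher. With scaling by library totals alone, 4 genes fell past it in atria, without Ednrb and Tek, and in ventricles 0 fell and 1 rose (Apln). On that scale 315 of 17650 genes fell past it in atria and 678 rose, and in ventricles 187 of 16909 fell and 779 rose. The ventricular median was also smaller in size on that scale, as given at the end. With the adjusted P alone and no fold limit, 12 genes were lower in atria, against 6.62% of all genes lower and 7.95% higher. The same count was 12 in ventricles, against 4.20% of all genes lower and 5.73% higher. Of these, 7 genes (Pecam1, Cdh5, Icam2, Tek, Robo4, Mmrn2 and Nos3) were lower in both chambers, which was 58.3% of each list, in tissue of the same 6 mice. Of the 16432 genes tested in both, 1.90% were lower in both, which was 27.3% of those lower in atria and 44.4% of those lower in ventricles. Whichever mouse was left out, 8 of the 12 kept an adjusted P under 0.05 in atria, where Flt4, Ednrb, Mmrn2 and Nos3 did not, with highest values of 0.137, 0.155, 0.134 and 0.0987. In ventricles 5 of 12 kept it (Pecam1, Tek, Eng, Robo4 and Cav1), and the highest values of the other 7 ran from 0.0517 to 0.160. The 3 CUG960 libraries lay below all 3 control libraries for 16 genes in atria, where 17.2% of all genes were separated in that direction and 18.5% in the other. They lay below for 17 genes in ventricles, where 15% of all genes were separated in that direction and 16.2% in the other. No endothelial gene was separated in the higher direction in either chamber. A single value compared over 3 against 3 libraries cannot reach an exact permutation P under 0.1. Without the mice whose libraries stood apart, the counts past the threshold were as follows. Without mouse V334, 7 endothelial genes passed the threshold in atria and 1 in ventricles. Without V123, 4 passed in atria and 3 in ventricles. Without V327, 4 passed in atria and 2 in ventricles.

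**Figure D1:**
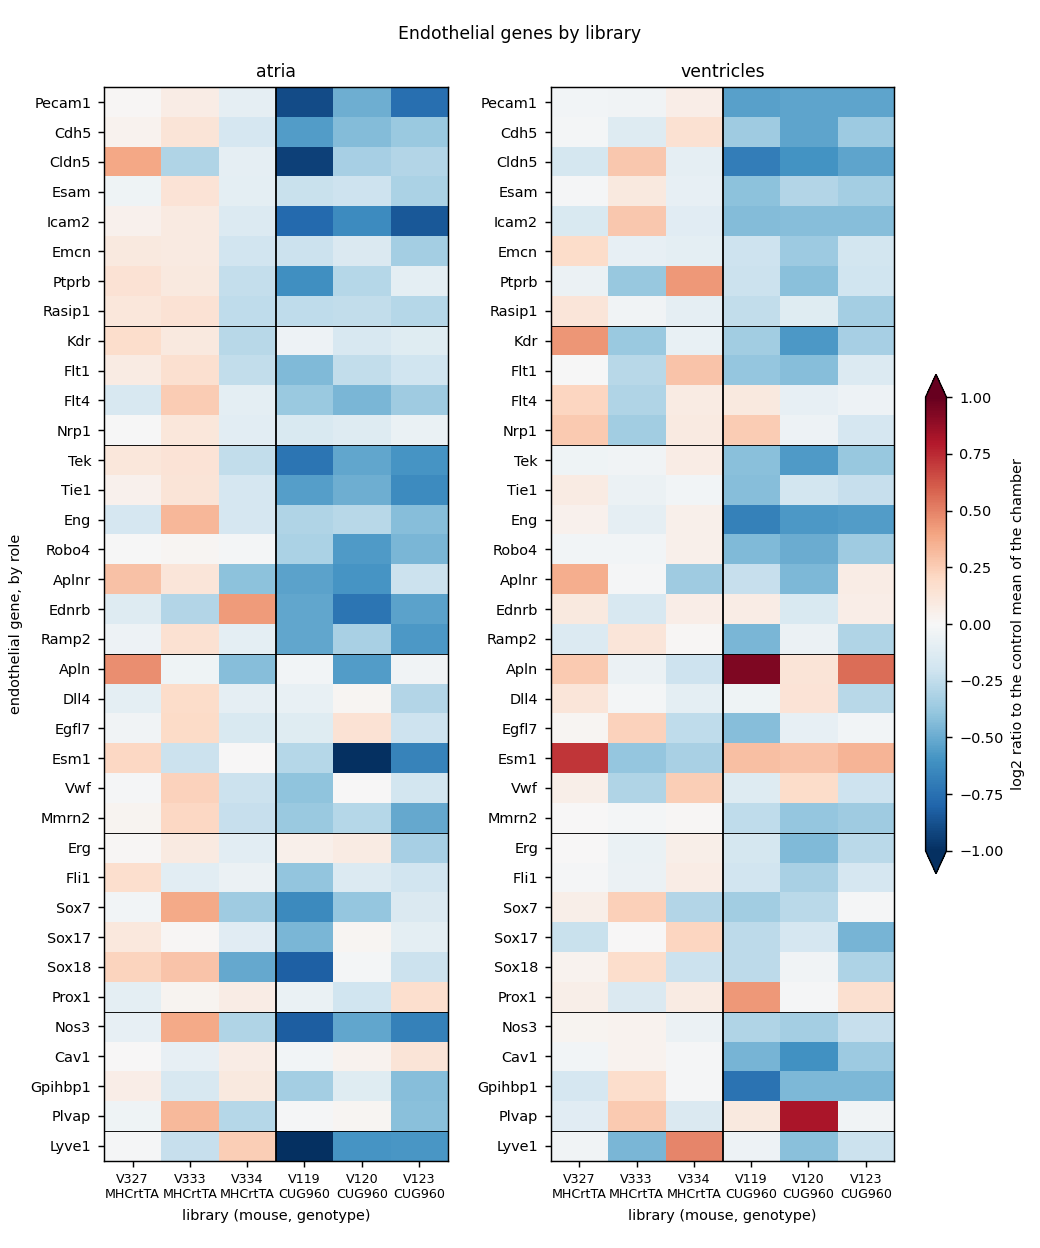
Heat map of the log2 ratio of each of the 36 endothelial genes to the control mean of its chamber (color), in the 6 atrial and 6 ventricular libraries (columns), with genes in rows ordered by role and thin lines between roles. The CUG960 columns were mostly blue in both chambers, with Apln in ventricles among the exceptions.

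The promoters of genes that fell past the threshold in a chamber, or that were lower by adjusted P in both chambers, are shown where RefSeq promoter windows were at hand, because endothelial promoters are known for ETS sites. Each window runs from 250 bases before to 50 bases after the annotated start, on the gene's strand, in build GRCm38.p6. Capitals mark AGGAAG or its reverse complement CTTCCT, the core letters that many ETS factors prefer. The windows are Tek (chr4:94739039-94739338, plus strand), Robo4 (chr9:37401722-37402021, plus strand), Eng (chr2:32646345-32646644, plus strand), Cldn5 (chr16:18776597-18776896, plus strand) and Ednrb (chr14:103843652-103843951, minus strand).
Tek: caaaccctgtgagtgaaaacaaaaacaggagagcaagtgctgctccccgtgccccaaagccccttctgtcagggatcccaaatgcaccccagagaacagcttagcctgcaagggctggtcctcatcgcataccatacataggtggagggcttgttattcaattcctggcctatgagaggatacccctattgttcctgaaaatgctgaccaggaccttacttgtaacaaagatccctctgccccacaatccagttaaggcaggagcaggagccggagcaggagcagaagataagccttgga
Robo4: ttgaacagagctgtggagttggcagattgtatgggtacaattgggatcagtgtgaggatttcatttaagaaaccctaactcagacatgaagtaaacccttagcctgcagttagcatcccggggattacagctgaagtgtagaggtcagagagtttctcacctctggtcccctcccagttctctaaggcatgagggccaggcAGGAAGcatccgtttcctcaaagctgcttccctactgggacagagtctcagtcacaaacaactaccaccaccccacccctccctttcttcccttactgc
Eng: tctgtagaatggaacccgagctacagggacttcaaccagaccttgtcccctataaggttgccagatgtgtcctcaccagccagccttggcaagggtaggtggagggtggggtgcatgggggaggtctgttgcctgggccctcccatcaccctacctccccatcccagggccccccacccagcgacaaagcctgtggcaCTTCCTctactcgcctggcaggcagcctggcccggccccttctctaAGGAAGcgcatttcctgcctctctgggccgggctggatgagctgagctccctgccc
Cldn5: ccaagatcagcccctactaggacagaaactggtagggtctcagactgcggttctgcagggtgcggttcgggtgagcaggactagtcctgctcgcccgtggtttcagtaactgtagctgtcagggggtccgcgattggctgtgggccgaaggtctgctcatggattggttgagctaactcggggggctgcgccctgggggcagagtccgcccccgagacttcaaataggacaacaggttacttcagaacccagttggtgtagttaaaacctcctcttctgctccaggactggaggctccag
Ednrb: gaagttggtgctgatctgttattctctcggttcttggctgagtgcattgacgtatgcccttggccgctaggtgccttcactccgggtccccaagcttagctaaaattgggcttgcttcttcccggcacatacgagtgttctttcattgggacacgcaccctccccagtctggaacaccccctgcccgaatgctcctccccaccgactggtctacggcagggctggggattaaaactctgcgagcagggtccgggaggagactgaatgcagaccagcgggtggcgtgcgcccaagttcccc
The Eng window held 2 such matches, with first bases 52 and 6 bases before the start, and the Robo4 window held 1, whose first base lay 49 bases before the start. The Tek, Cldn5 and Ednrb windows held none of these letters. Of the 36 genes, 19 had a window in the RefSeq table, with 25 windows in all. On either strand, AGGAAG stood in 12 of these 25 windows (48.0%) and in 35.4% of all 32851 windows. ACAAT, core letters of SOX sites, stood in 5 of 25 (20.0%) and in 31.0% of all. Neither motif contains the other, and a match is only a stretch of letters.

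Of the 8 junction and surface genes, 3 were lower by adjusted P in atria (Pecam1, Cdh5 and Icam2) and 5 in ventricles (those 3 with Cldn5 and Esam), and all 8 had a fitted value below 0 in each chamber. Pecam1 (chr11:106654217-106750628, minus strand, ENSMUSG00000020717.19) encodes CD31, the adhesion molecule most used to mark endothelium. Its level was 236, 247 and 220 CPM in control atria and 126, 167 and 138 CPM in CUG960 atria. In ventricles it was 177, 175 and 188 CPM in controls and 123.3, 125 and 124.5 CPM in CUG960 libraries. The groups did not overlap in either chamber, and the CUG960 ventricles were close to each other. The fitted log2 fold change was -0.71 ± 0.10 (SE) in atria (adjusted P = 0.00431) and -0.53 ± 0.07 in ventricles (adjusted P = 0.00179).

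Cdh5 (chr8:104101625-104144511, plus strand, ENSMUSG00000031871.9) encodes VE-cadherin, the adherens junction protein of endothelium. Control atria held 91.9, 98.3 and 80.1 CPM and CUG960 atria 61.1, 66.6 and 69.2 CPM. Control ventricles held 189, 175 and 213 CPM and CUG960 ventricles 150, 133 and 149 CPM. Every CUG960 library lay below every control library of its chamber. The log2 fold changes were -0.46 ± 0.09 (adjusted P = 0.0117) and -0.42 ± 0.09 (adjusted P = 0.0218), both under the fold limit.

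Icam2 (chr11:106377656-106388075, minus strand, ENSMUSG00000001029.15), a leukocyte adhesion molecule that resting endothelium carries, had the lowest fitted value of the 36 genes in atria. It stood at 18.2, 18.8 and 16.1 CPM in control atria and at 10.3, 11.4 and 9.79 CPM in CUG960 atria. In ventricles it stood at 23.8, 31.8 and 24.4 CPM in controls and at 19.6, 19.7 and 19.7 CPM in CUG960 libraries. The groups were apart in both chambers, by a wider gap in atria. The log2 fold change was -0.75 ± 0.09 in atria (adjusted P = 0.00189) and -0.44 ± 0.12 in ventricles (adjusted P = 0.0439), and the difference between these values did not pass its own test (adjusted P = 0.445).

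Cldn5 (chr16:18776847-18778262, plus strand) encodes claudin-5, the tight junction protein of endothelium, and had the lowest fitted value in ventricles. Its ventricular level was 18.4, 25.1 and 19.6 CPM in controls and 12.9, 13.8 and 14.5 CPM in CUG960 libraries, with no overlap. In atria it was 10.3, 6.41 and 7.44 CPM in controls and 4.14, 6.28 and 6.44 CPM in CUG960 libraries, and the highest CUG960 value just exceeded the lowest control. The ventricular log2 fold change was -0.62 ± 0.12 (adjusted P = 0.0159) and the atrial one -0.52 ± 0.21 (adjusted P = 0.145). Esam, a junctional adhesion molecule, fell by 0.35 ± 0.08 in ventricles (adjusted P = 0.0212) and had a value of -0.25 ± 0.08 in atria (adjusted P = 0.0584). Emcn, Ptprb and Rasip1, a sialomucin, the VE-PTP phosphatase and a Rap1 effector of vessel lumens, lay between -0.32 and -0.23 in both chambers with none past the test.

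Of the 4 VEGF receptors and co-receptors, 1 was lower by adjusted P in atria and 0 in ventricles (2 at an unadjusted P under 0.05 there). Kdr, the main signaling receptor for VEGF-A, had a log2 fold change of -0.12 ± 0.11 in atria (adjusted P = 0.495) and -0.45 ± 0.18 in ventricles (adjusted P = 0.139). The ventricular value ranged from -0.20 without V327 to -0.62 without V333, where it passed the threshold (adjusted P = 0.0403), and DESeq2 gave it an adjusted P of 0.0398. Flt1, the decoy-like VEGF receptor, stood at -0.30 ± 0.11 and -0.33 ± 0.14 and passed in neither. Flt4, the receptor for VEGF-C and VEGF-D, fell by 0.41 ± 0.11 in atria (adjusted P = 0.0464), with -0.49 to -0.27 and adjusted P up to 0.137 when a mouse was left out, and stood at -0.02 ± 0.13 in ventricles. Nrp1, the VEGF and semaphorin co-receptor, had values of -0.12 and 0.00, and it is also made by other cells of the heart.

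**Figure D2:**
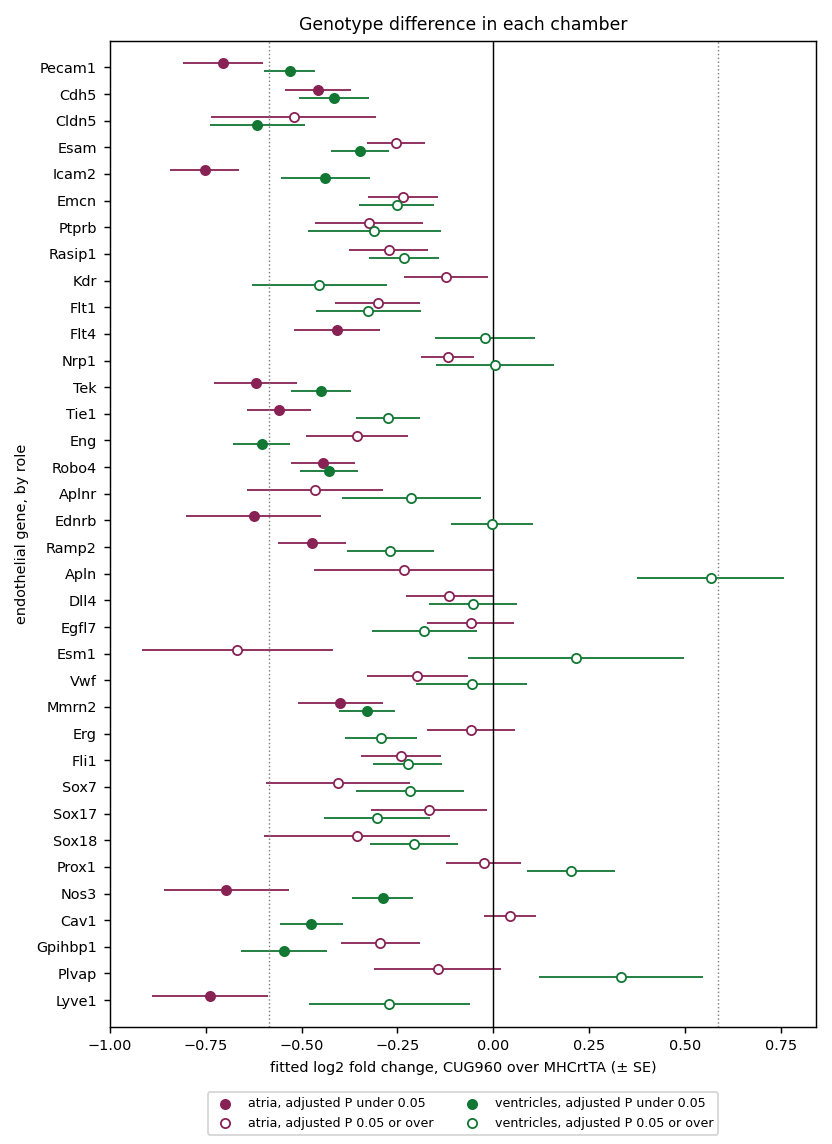
Fitted log2 fold change of CUG960 over MHCrtTA (horizontal axis, with standard error) for the 36 genes by role, in atria and ventricles. Filled points had an adjusted P under 0.05 and dotted lines mark a fold change of 1.5. Most points lay left of 0, with 12 filled points per chamber, none of them right of 0.

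Of the 7 other receptors, 5 were lower by adjusted P in atria and 3 in ventricles. Tek (chr4:94739289-94874976, plus strand, ENSMUSG00000006386.15) encodes Tie2, the angiopoietin receptor. Its level was 78.5, 79.6 and 61.2 CPM in control atria and 43.7, 50.8 and 48.3 CPM in CUG960 atria. In ventricles it was 71.3, 71.9 and 77.6 CPM in controls and 55.1, 49.7 and 56.7 CPM in CUG960 libraries. No library of 1 genotype entered the range of the other. Tek fell by 0.62 ± 0.11 on the log2 scale in atria (adjusted P = 0.00833) and by 0.45 ± 0.08 in ventricles (adjusted P = 0.00857). Its partner Tie1 fell by 0.56 ± 0.08 in atria (adjusted P = 0.00464) and had a value of -0.28 ± 0.08 in ventricles (adjusted P = 0.0698).

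Eng (chr2:32646595-32682669, plus strand) encodes endoglin, a co-receptor for BMP9 and TGF-beta ligands. Control ventricles held 187, 171 and 188 CPM and CUG960 ventricles 113.6, 121.7 and 123.4 CPM, far from overlap. Control atria held 318, 450 and 318 CPM and CUG960 atria 290, 294 and 265 CPM, with mouse V333 well above the rest. Eng fell by 0.60 ± 0.07 in ventricles (adjusted P = 0.00161) and had an atrial value of -0.35 ± 0.13 (adjusted P = 0.115). Ednrb (chr14:103814625-103844402, minus strand), the endothelin B receptor, stood at 13.4, 11.9 and 19.7 CPM in control atria and at 10.2, 8.84 and 10.1 CPM in CUG960 atria. Its ventricular values were 16.7, 13.9 and 16.3 CPM in controls and 16.4, 14.0 and 16.3 CPM in CUG960 libraries, which overlapped almost wholly. The atrial log2 fold change of -0.62 ± 0.18 (adjusted P = 0.0497) rested in part on control mouse V334, the highest library, and without that mouse it was -0.38 (adjusted P = 0.0721). Robo4, an endothelial Roundabout receptor, fell by 0.44 ± 0.08 in atria (adjusted P = 0.0111) and by 0.43 ± 0.08 in ventricles (adjusted P = 0.00906). Ramp2, the adrenomedullin receptor partner, fell by 0.47 ± 0.09 in atria (adjusted P = 0.0117) and stood at -0.27 ± 0.11 in ventricles. Aplnr, the apelin receptor, had values of -0.47 ± 0.18 and -0.21 ± 0.18 and passed in neither. Its atrial value passed the threshold without V334 (-0.64, adjusted P = 0.0225) and had an adjusted P of 0.0354 with DESeq2.

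The secreted factors had medians of -0.22 in atria and -0.05 in ventricles, and 1 of 6 was lower by adjusted P in each chamber. Mmrn2, the multimerin of endothelial matrix, was the member lower by adjusted P in atria (-0.40 ± 0.11, adjusted P = 0.0465) and in ventricles (-0.33 ± 0.07, adjusted P = 0.0218). Apln (chrX:48025146-48034853, minus strand) encodes apelin, a peptide that sprouting endothelium secretes, and had the highest fitted value of the 36 genes in ventricles. Its level was 21.0, 16.8 and 15.2 CPM in control ventricles and 33.4, 19.2 and 25.8 CPM in CUG960 ventricles. In atria it was 6.83, 4.81 and 3.69 CPM in controls and 4.85, 3.36 and 4.83 CPM in CUG960 libraries. The groups overlapped in both chambers, in ventricles by the library of mouse V120 alone. The log2 fold change was 0.57 ± 0.19 in ventricles (adjusted P = 0.0970) and -0.23 ± 0.23 in atria (adjusted P = 0.546). Without V120 the ventricular value was 0.75 (adjusted P = 0.0401), without V119 it was 0.35 (adjusted P = 0.263), and no other fit that left out a mouse passed. Egfl7, Dll4 and Vwf, a vessel matrix protein, an arterial Notch ligand and the platelet-binding von Willebrand factor, lay between -0.20 and -0.05 in both chambers. Esm1, a tip cell proteoglycan and per length the lowest of the 36 genes in control hearts of either chamber, had a value of -0.67 ± 0.25 in atria (adjusted P = 0.112) and 0.22 ± 0.28 in ventricles.

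No endothelial transcription factor passed the test in either chamber. The ETS factors Erg and Fli1 had values of -0.06 and -0.24 in atria and of -0.29 and -0.22 in ventricles. The SOXF factors Sox7, Sox17 and Sox18 ranged from -0.41 to -0.17 in atria, and in ventricles from -0.30 to -0.21. The Erg and Fli1 groups did not overlap in ventricles, where Erg was at 25.4, 24.1 and 26.2 CPM in controls and at 22.3, 18.5 and 20.9 CPM in CUG960 libraries. Prox1, the lymphatic regulator that cardiomyocytes also make, had values of -0.03 and 0.20.

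Of the 4 nitric oxide, caveolar and transport genes, 1 was lower by adjusted P in atria and 3 in ventricles. Nos3 (chr5:24364810-24384474, plus strand, ENSMUSG00000028978.12), endothelial nitric oxide synthase, was at 44.4, 61.3 and 38.3 CPM in control atria and at 26.6, 32.8 and 29.5 CPM in CUG960 atria. In ventricles it was at 28.5, 28.7 and 26.8 CPM in controls and at 22.7, 22.1 and 23.8 CPM in CUG960 libraries. The groups were apart in both chambers. Nos3 fell by 0.70 ± 0.16 in atria (adjusted P = 0.0261) and by 0.29 ± 0.08 in ventricles (adjusted P = 0.0485).

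Cav1 (chr6:17306335-17341452, plus strand, ENSMUSG00000007655.16), the coat protein of caveolae that fibroblasts and smooth muscle also make, had the highest fitted value in atria. It stood at 305, 288 and 321 CPM in control atria and at 298, 312 and 332 CPM in CUG960 atria. In ventricles it stood at 304, 317 and 306 CPM in controls and at 223, 203 and 240 CPM in CUG960 libraries. The atrial groups overlapped throughout and the ventricular ones were far apart. The log2 fold change was 0.04 ± 0.07 in atria (adjusted P = 0.716) and -0.48 ± 0.08 in ventricles (adjusted P = 0.00833).

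Gpihbp1, the capillary anchor of lipoprotein lipase, fell by 0.55 ± 0.11 in ventricles (adjusted P = 0.0165), with 61.3, 77.8 and 68.2 CPM in controls and 41.2, 50.4 and 50.3 CPM in CUG960 libraries. Its atrial value was -0.29 ± 0.10 (adjusted P = 0.0952). Plvap, the diaphragm protein of fenestrae and caveolae, had values of -0.14 ± 0.17 and 0.33 ± 0.21. Lyve1 (chr7:110850607-110863239, minus strand), a hyaluronan receptor of lymphatic endothelium that resident macrophages also carry, was at 38.9009, 33.29 and 46.35 CPM in control atria and at 18.93, 25.96 and 26.18 CPM in CUG960 atria. Its ventricular levels were 9.79, 7.30 and 14.1 CPM in controls and 9.68, 7.49 and 8.64 CPM in CUG960 libraries, which overlapped. Lyve1 fell by 0.74 ± 0.15 in atria (adjusted P = 0.0162) and by 0.61 there without mouse V334 (adjusted P = 0.0421), and had a ventricular value of -0.27 ± 0.21.

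**Figure D3:**
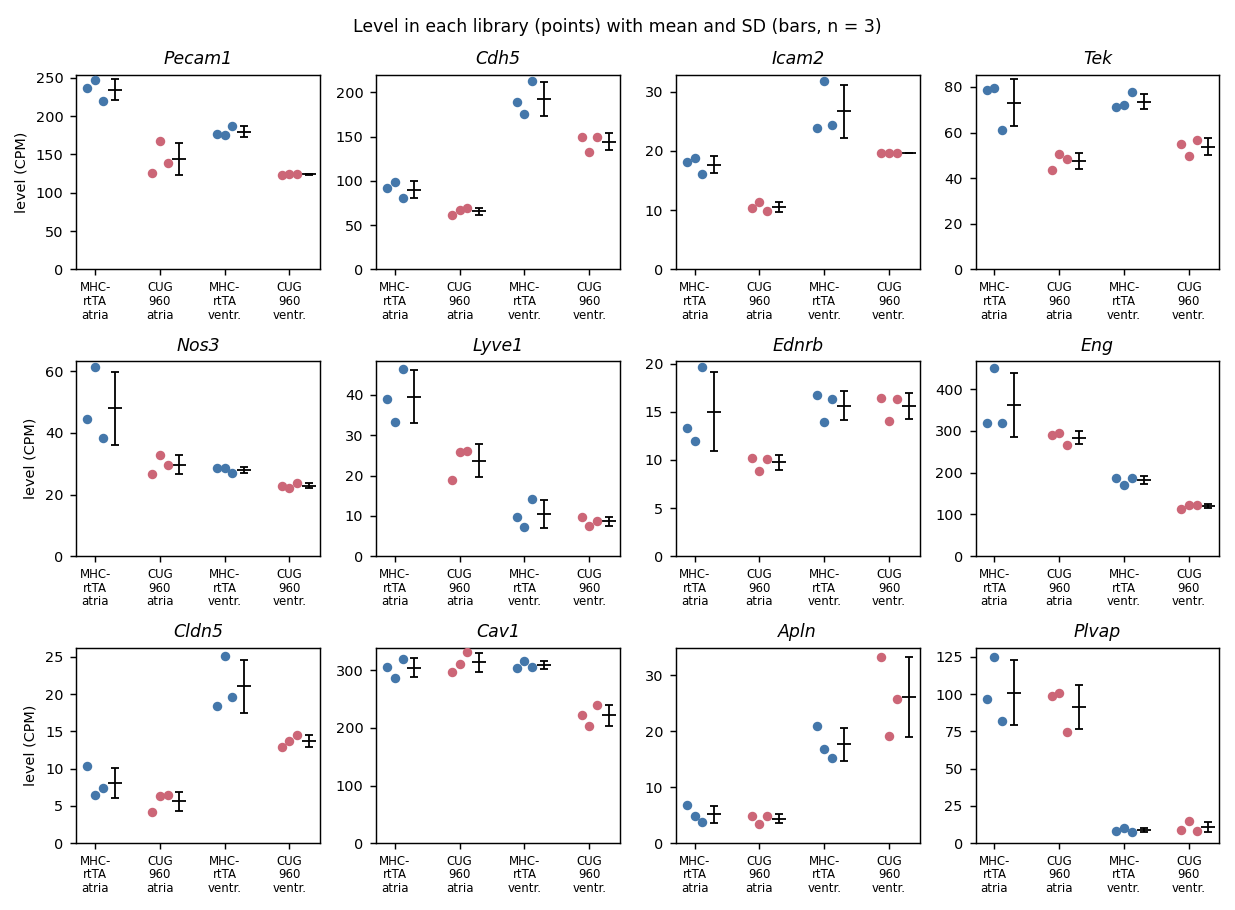
Level in CPM (vertical axis, from 0) of 12 endothelial genes in each of the 12 libraries (points, blue for MHCrtTA and red for CUG960), with the mean and SD of each group of 3 beside them. CUG960 points lay below control points in both chambers for Pecam1, Cdh5, Icam2, Tek, Nos3 and Eng. They lay below in ventricles alone for Cav1 and Cldn5, and in atria alone for Lyve1 and Ednrb.

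The size of the genotype difference was then compared between chambers, as an interaction in a single fit of all 12 libraries. Cav1 alone of the 36 genes passed, with a change lower in ventricles than in atria by 0.52 ± 0.10 on the log2 scale (adjusted P = 0.0303), where 0.688% of 18327 genes tested moved in that direction and 0.693% in the other. Leaving out any 1 mouse ended this call, with adjusted P from 0.0558 to 0.179, while the value stayed between -0.57 and -0.45. Atria and ventricles came from the same animals, and with the mouse as a replicate block 2 genes passed, Cav1 (-0.52, adjusted P = 0.0394) and Apln (0.75, adjusted P = 0.0364). The median difference over the 36 genes was 0.10, and it ran from 0.026 to 0.23 when a mouse was left out (0.23 without V334).

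Several calls were lost when 1 mouse was left out, mostly with the fold change little altered. Nos3 lost the atrial call in 4 of 6 fits that left out a mouse, with a log2 fold change of -0.78 to -0.48 in those fits, and Ednrb lost it in 5, with -0.71 to -0.56 in 4 of them and -0.38 without V334. Tek lost it in 3, through the fold limit with every adjusted P at or under 0.0362. Cldn5 lost the ventricular call in 3 of 6 (-0.62 to -0.47 in those fits) and Eng in 3, Eng with every adjusted P at or under 0.0117. Icam2, Lyve1 and Pecam1 kept the atrial call in all 6. Without V119 the threshold count was 3 in atria and 0 in ventricles. By the adjusted P alone the counts of lower genes ranged from 8 to 14 in atria and from 7 to 11 in ventricles.

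A second list of 18 genes, read here as a separate yardstick because it shares no gene with the 36, holds other pan-endothelial genes. Its median log2 fold change was -0.35 in atria and -0.38 in ventricles, near the medians of the 36 genes. By adjusted P, 7 of 18 were lower in atria and 8 in ventricles, and 1 was higher in ventricles. Cd93, a lectin-like receptor, fell by 0.80 ± 0.09 in atria, and Notch4, the endothelial Notch receptor, fell by 0.68 ± 0.11 in atria. Rhoj, a small GTPase of endothelium, fell by 0.64 ± 0.11 in atria and by 0.63 ± 0.13 in ventricles, whereas Exoc3l2, at 0.88 to 2.15 CPM in ventricles, rose by 0.76 ± 0.21 in ventricles (adjusted P = 0.0482). When all libraries were scaled to these 18 genes, the median of the 36 genes was 0.04 in both chambers, while the median of all genes became 0.36 in atria and 0.31 in ventricles. On that scale no endothelial gene passed the threshold in atria, where 2770 of 17650 genes were higher past it and 171 lower. In ventricles 2228 of 16909 genes were higher past it and 143 lower. By adjusted P alone Pecam1 (-0.34) and Icam2 (-0.38) stayed below the yardstick and Egfl7 (0.31) and Cav1 (0.40) stood above it in atria. In ventricles Eng (-0.29) was below it, and Apln (0.89), Prox1 (0.52), Plvap (0.65) and Ednrb (0.32) were above it. Egfl7 in atria lay below the median of all genes on that scale, and Ednrb in ventricles lay close to it.

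Lists of vessel types were read beside the 36 genes. Of 12 capillary genes, 5 were lower by adjusted P in ventricles and 1 in atria, with medians of -0.36 and -0.26. Car4, a capillary carbonic anhydrase, was at 20.0, 25.5 and 23.1 CPM in control ventricles and at 10.4, 13.3 and 16.1 CPM in CUG960 ventricles, and fell by 0.78 ± 0.16. Fabp4, a fatty acid carrier, fell there by 0.60 ± 0.12, and Cd36, the fatty acid translocase that cardiomyocytes also make, fell by 0.40 ± 0.10. Of 12 arterial genes, 3 were lower in atria and 2 in ventricles (medians -0.30 and -0.33). Among them Gja5, the connexin 40 gene shared by arterial endothelium and atrial cardiomyocytes, fell by 1.51 ± 0.12 in atria, from 36.03, 43.79 and 42.59 CPM to 15.83, 11.97 and 15.23 CPM. Of 9 venous genes 1 was lower in atria and 0 in ventricles by adjusted P in edgeR's test, with 3 at an unadjusted P under 0.05 in each (medians -0.25 and -0.23).

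Endocardial genes included 2 that rose in ventricles. Of 9 listed, which include Plvap and Vwf, 4 were lower by adjusted P in atria (median -0.23), while 2 rose past the threshold in ventricles (median 0.09). Npr3, the natriuretic peptide clearance receptor of endocardium, was at 24.0, 25.6 and 29.3 CPM in control ventricles and at 41.5, 41.4 and 43.0 CPM in CUG960 ventricles. It rose by 0.68 ± 0.09 (adjusted P = 0.00212), with no overlap. Tmem108 rose by 0.60 ± 0.13 in ventricles and fell by 0.39 ± 0.10 in atria. Of 11 lymphatic genes, which include Lyve1, Prox1 and Flt4, 2 were lower in atria (Lyve1 and Flt4), and Ccl21a, the lymphatic chemokine, rose by 0.80 ± 0.14 in ventricles (medians -0.11 and 0.01). Of 10 tip cell genes, which include Esm1 and Apln, Angpt2 alone passed the adjusted P, higher in atria by 0.44 ± 0.10 (medians -0.17 and -0.16). Of 9 genes of endothelial activation, Nfkb1 alone was lower in atria by adjusted P (medians -0.43 and -0.15).

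Pathway lists were read in the same way. Of 12 Notch pathway genes, 4 were lower in atria and 2 in ventricles (medians -0.27 and -0.19), and Hey2, a Notch target that ventricular muscle also makes, fell by 0.67 ± 0.19 in atria. Of 13 genes of BMP and KLF signaling, 2 were lower in atria (median -0.29) and 0 in ventricles (median -0.04, with 1 at an unadjusted P under 0.05 in edgeR's test). Tmem100, a target of the ALK1 receptor, was at 12.1, 14.0 and 11.9 CPM in control atria and at 6.13, 7.57 and 7.56 CPM in CUG960 atria, and fell by 0.84 ± 0.11. Of 20 angiogenic ligands, 5 were higher and 4 lower in atria, and of 19 tested in ventricles 1 was higher and 3 lower, by adjusted P. Sema3a, a repulsive ligand for Nrp1, rose in both chambers, from 8.42 to 9.19 CPM in control atria to 14.4 to 15.7 CPM in CUG960 atria, and from 2.548 to 2.999 CPM in control ventricles to 6.28 to 6.62 CPM in CUG960 ventricles. Its log2 fold changes were 0.77 ± 0.07 and 1.24 ± 0.12. Vegfa, the main ligand of Kdr, fell by 0.30 ± 0.08 in atria (adjusted P = 0.0449). Edn1, endothelin 1, fell by 0.73 ± 0.15 in atria. In ventricles Angpt1, the ligand of Tek, fell by 0.74 ± 0.15, Cxcl12 by 0.72 ± 0.12 and Fgf2 by 0.83 ± 0.18, whereas Angpt1 rose by 0.49 ± 0.11 in atria.

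**Figure D4:**
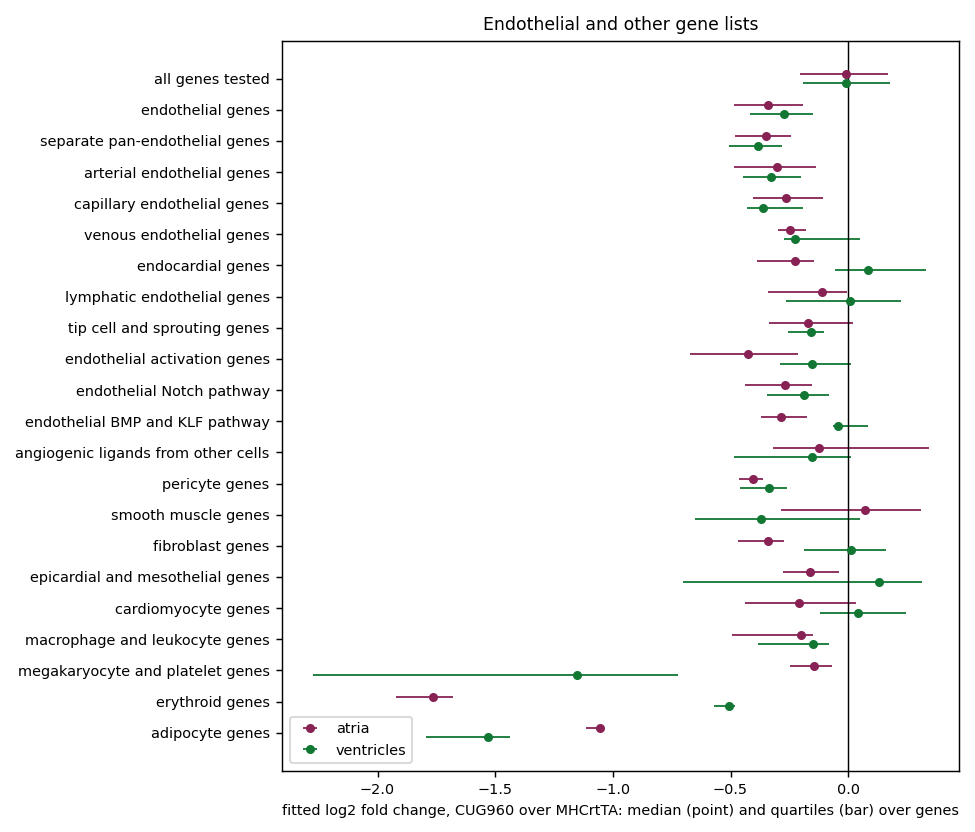
Median (point) and quartiles (bar) of the fitted log2 fold change of CUG960 over MHCrtTA over the genes of each list (rows), in atria and ventricles, with all genes tested in the top row. The endothelial, separate pan-endothelial, arterial, capillary and pericyte lists lay between -0.40 and -0.26 in both chambers, and the fibroblast list at -0.34 in atria and 0.01 in ventricles. The erythroid and adipocyte lists lay lower in both chambers, the platelet list lower in ventricles and the endothelial activation list lower in atria.

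Other cell types moved in part alongside. Of 11 pericyte genes, the mural partners of capillary endothelium, 4 were lower by adjusted P in atria and 6 in ventricles, with medians of -0.40 and -0.34. Their most abundant gene, Rgs5, was at 467, 497 and 502 CPM in control ventricles and at 363, 310 and 375 CPM in CUG960 ventricles. Pdgfrb and Rgs5, the defining pericyte markers, were found in all libraries. Vtn and Steap4 fell past the threshold in ventricles, by 0.69 ± 0.09 and 0.64 ± 0.09. Their summed level was 268, 299 and 298 CPM in control atria, 207, 214 and 252 CPM in CUG960 atria, 1074, 1046 and 1146 CPM in control ventricles and 884, 742 and 834 CPM in CUG960 ventricles. The part of these cells in the endothelial values was not tested.

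Of 12 fibroblast genes, 5 were lower in atria (median -0.34) and 1 was higher in ventricles (median 0.01), and their most abundant gene was Gsn. Their summed level was 7671, 8938 and 9043 CPM in control atria and 7269, 8069 and 6691 CPM in CUG960 atria, which overlapped, and 3184 to 3524 CPM against 3111 to 3565 CPM in ventricles. Pi16, a marker of adventitial fibroblasts, fell by 0.88 ± 0.18 in atria, and Mfap4 rose by 0.60 ± 0.16 in ventricles. Of 10 smooth muscle genes, 5 were lower and 1 higher in ventricles (median -0.37), and 1 was lower and 2 higher in atria (median 0.07). Lmod1, Mylk, Myh11 and Tagln fell past the threshold in ventricles, by 0.75, 0.71, 0.65 and 0.63, Myocd rose by 0.61, and Tagln rose by 1.21 ± 0.31 in atria. Pln gave most of their sum and is a cardiomyocyte gene in this tissue. The sum was 993 to 1235 CPM in control atria, 1250 to 1529 in CUG960 atria, 5702 to 6179 in control ventricles and 6050 to 6512 in CUG960 ventricles.

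Of 13 cardiomyocyte genes, 2 were lower and 2 higher in atria (median -0.21), and 1 was lower and 2 higher in ventricles (median 0.04). Their sum was 69705 to 70395 CPM in CUG960 atria against 72182 to 73639 in control atria, and 85304 to 91202 against 82203 to 87466 in ventricles, with Myh6 the most abundant. Ryr2 fell by 0.67 ± 0.13 in ventricles, and Nppa rose there by 1.301 ± 0.31. Nppa is far higher in atria, and its ventricular level was 0.306%, 0.342% and 0.534% of the control atrial mean in controls and 0.545%, 1.41% and 0.953% in CUG960 libraries. The part of atrial tissue in this value was not tested. Macrophage and leukocyte genes had 0 of 15 past the adjusted P in either chamber in edgeR's test (3 and 2 at an unadjusted P under 0.05, medians -0.20 and -0.15), and Lyz2 was their most abundant. Erythroid genes also had 0 past the adjusted P (5 and 2 of 6 tested at an unadjusted P under 0.05, medians -1.76 and -0.51), with mouse V334 high in atria as given above. The alpha globin genes are near-identical copies, whose split between them is uncertain.

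Dbh, the noradrenaline-making enzyme of sympathetic neurons, was at 4.72, 4.84 and 3.05 CPM in control atria and at 1.70, 1.79 and 1.84 CPM in CUG960 atria. In ventricles it was at 3.97, 4.58 and 3.07 CPM in controls and at 2.03, 1.14 and 0.967 CPM in CUG960 libraries. It fell by 1.24 ± 0.18 in atria and by 1.48 ± 0.28 in ventricles, with no overlap in either. It was the single gene of 6 neuron and Schwann genes past the adjusted P in atria, where their median was -0.07. In ventricles 2 of 5 tested were lower by adjusted P, all 5 had a fitted value below 0, and their median was -0.82. Adipocyte genes had 0 of 6 past the adjusted P in atria (0 at an unadjusted P under 0.05 in edgeR's test) and 2 of 6 lower in ventricles, Plin1 and Retn (6 at an unadjusted P under 0.05, medians -1.06 and -1.53), with a sum of at most 18.7 CPM in any library. In atria that highest sum was in control mouse V333, against 7.65 and 7.28 CPM in the other controls and 4.52, 8.89 and 6.34 CPM in CUG960 libraries. Megakaryocyte and platelet genes had 0 of 8 past the adjusted P in atria (0 at an unadjusted P under 0.05 in edgeR's test) and Gp1ba lower in ventricles (6 at an unadjusted P under 0.05, medians -0.15 and -1.15). Their ventricular sum was 38.4 CPM in control mouse V327, against 11.4 and 18.02 CPM in the other controls and 12.4, 10.4 and 9.06 CPM in CUG960 libraries, so the groups overlapped. Epicardial genes had 0 of 9 past it in atria (3 at an unadjusted P under 0.05) and Aldh1a2 lower by 0.73 ± 0.16 in ventricles (medians -0.16 and 0.13). The part of all these cells in the endothelial values was not tested.

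Single endothelial genes set the chambers apart in control hearts, whereas for their summed level this depended on the scaling. The sum over the 36 genes was 2442, 2707 and 2231 CPM in control atria and 2565, 2327 and 2532 CPM in control ventricles, which overlapped. By library totals alone, a scaling of the sum chosen after seeing the data, it was 2543 to 3142 CPM in control atria and 1897 to 2170.5 CPM in control ventricles, which did not. In CUG960 hearts the sum after TMM scaling was 1917, 2117 and 1998 CPM in atria and 1974, 1887 and 2024 CPM in ventricles, below every control library. Per length, in CPM per kb of merged exons, the order in control atria began with Eng (89.4 ± 18.8, SD, n = 3), Cav1 (88.5 ± 4.8) and Plvap (50.8 ± 11.0), of which Eng and Cav1 differed by less than their spread. In control ventricles it began with Cav1 (89.7 ± 2.0), Cdh5 (45.8 ± 4.5) and Eng (44.9 ± 2.4), of which Cdh5 and Eng differed by less than their spread. The list ended with Sox17 (0.58 ± 0.04) and Esm1 (0.51 ± 0.07) in control atria and with the same genes in ventricles (1.42 ± 0.21 and 0.73 ± 0.34).

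In control hearts 7 of the 36 genes were higher in atria by the threshold, against 18.5% of all genes, and 16 were lower, against 16.5% of all genes. With the mouse as a replicate block 1 of these calls was lost. The median log2 fold change of atria over ventricles was -0.54, against 0.04 over all genes. With scaling by library totals alone the median of all genes shifted to 0.49 and that of the 36 genes to -0.09. The calls among the 36 were then 9 higher and 9 lower, against 7180 higher and 1537 lower of all 18327 genes. Scaled to 18 other pan-endothelial genes, introduced above, the medians were 0.66 and 0.088. The calls among the 36 were 12 higher and 8 lower, against 9204 higher and 1220 lower of all 18327 genes. Such a change of scale moves every gene alike, so that the gap between the medians is fixed and the calls are not. Plvap (chr8:71497765-71511752, minus strand), whose protein forms the diaphragms of fenestrated endothelium and marks endocardium, had the highest value. It was at 96.5, 125 and 81.6 CPM in control atria and at 7.79, 10.2 and 7.62 CPM in control ventricles. The log2 difference was 3.57 ± 0.24 (adjusted P = 5.77e-08). Vwf (2.75 ± 0.17), Lyve1 (1.93 ± 0.21), Eng (0.99 ± 0.12), Emcn, Nos3 and Mmrn2 were also higher in atria. The genes lower in atria were led by Aplnr (-2.03 ± 0.21), Gpihbp1 (-1.97 ± 0.12) and Apln (-1.79 ± 0.24). Cdh5 was lower in atria by 1.09 ± 0.09 (adjusted P = 5.04e-07), whereas Pecam1 was 0.38 ± 0.09 higher and under the fold limit.

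In CUG960 hearts 5 genes were higher in atria, against 17.3% of all genes, and 21 were lower, against 15.8%. The median was -0.66 against 0.03 over all genes. By library totals it was -0.28 against 0.41, with 9 higher and 10 lower, where 6148 of 18327 genes were higher and 1611 lower. By the other pan-endothelial genes it was 0.0090 against 0.69, with 10 higher and 6 lower, where 9693 of all genes were higher and 1076 lower. The largest values were again those of Plvap (3.09 ± 0.23), Vwf (2.61 ± 0.17) and Lyve1 (1.46 ± 0.21), and the lowest were Apln (-2.59 ± 0.25), Aplnr (-2.28 ± 0.21) and Gpihbp1 (-1.72 ± 0.12). Cav1 had a chamber difference of -0.02 ± 0.07 in controls and of 0.50 ± 0.07 in CUG960 hearts, and the interaction above is the test of that contrast.

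**Figure D5:**
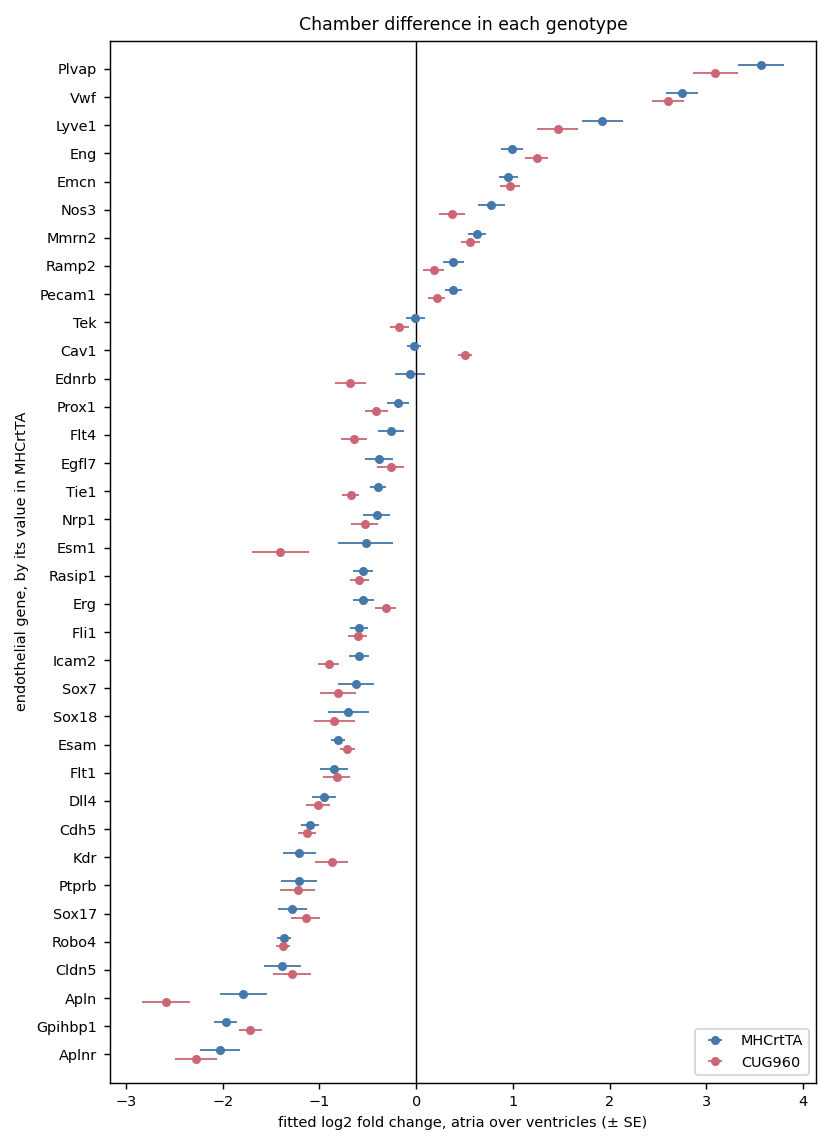
Fitted log2 fold change of atria over ventricles (horizontal axis, with standard error) for the 36 genes (rows, in the order of the control values), in MHCrtTA and CUG960 hearts. Values ran from 3.57 for Plvap to -2.03 for Aplnr in controls, and Cav1 lay at -0.02 in controls and 0.50 in CUG960 hearts.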

How the data were processed

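Stranded libraries had been made from poly(A) RNA of both chambers in 6 mice, 3 per genotype. The authors deposited estimated counts per gene from RSEM 1.3.1 (build mm10/GRCm38 per the labels), as whole numbers that were used as deposited, with no other scaling. Counts of 51826 genes were analyzed with edgeR 4.0.16 in R 4.3.3 (filterByExpr, TMM factors, quasi-likelihood F test, Benjamini-Hochberg adjustment over all genes tested). Each chamber's genotype comparison used its own 6 libraries. The chamber comparisons and the interaction used all 12 libraries with 4 group means. The study states a limit of 1.5 both as a fold change and as a log2 fold change. The first was used and the second was an alternative. DESeq2 1.42.0 was another alternative. The standard error of a log2 fold change was derived from its F statistic. Levels are CPM after TMM over 12 libraries, with lengths from merged GENCODE exons. At the depths seen, 1 CPM stood for 105 to 174 counts, so that sampling noise was small for most genes and the 3 mice per group set the precision. The labels name the mice, so replicates are separate animals and the 2 chambers of a mouse are paired. Deviations from group means correlated at 0.03 to 0.13 within a mouse (6 pairs) and at -0.15 to 0.12 between mice (30 pairs). The members, and the 21 lists of other genes, were chosen with earlier results of these data known, so no list gets a test. From a list of neuron and Schwann genes only Dbh is named, beside the list's counts by adjusted P and its medians. Named genes were those past the threshold in a chamber or in the interaction, the highest and lowest values, Pecam1 and Cdh5, and from each list up to 5 genes past the threshold with further examples chosen after their values were seen. Alternatives were other scalings, filters and tools, a scaling to 18 separate pan-endothelial genes, the mouse as a replicate block, and leaving out each mouse. The scripts were tested on simulated data. Promoters are from RefSeq windows of GRCm38.p6.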

Additional observations from a re-analysis of the deposited data

Results flagged for a closer look

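For 9 genes of the lists, the genotype difference itself differed between chambers by edgeR's interaction test over all 12 libraries, given as ventricles minus atria on the log2 scale. Cav1 was the only one among the 36 endothelial genes, at -0.52 (adjusted P = 0.0303). Of all 18327 genes tested, 0.693% had a change higher in ventricles and 0.688% a change higher in atria, or 127 and 126 genes. With 1 mouse left out these counts were 40 to 75 and 34 to 57, and Cav1 was not among them. For the genes named next, the values in those fits are not given here. Among ligands, Angpt1 stood at -1.24 (adjusted P = 0.00791), with 67.8 to 86.3 CPM in control atria, 94.7 to 116.4 CPM in CUG960 atria, 7.28 to 10.6 CPM in control ventricles and 5.12 to 5.91 CPM in CUG960 ventricles, and Slit3 stood at -0.67 (adjusted P = 0.0379). Tagln of smooth muscle stood at -1.85 (adjusted P = 0.0445). The endocardial genes Cgnl1 (0.86, adjusted P = 0.0102), Tmem108 (0.98, adjusted P = 0.0132) and Npr3 (0.75, adjusted P = 0.0293) differed with a change higher in ventricles, as did Tmem100 (0.84, adjusted P = 0.0202) and Nppa (1.72, adjusted P = 0.0494). Nppa is also a cardiomyocyte gene, far higher in atria, and the part of atrial tissue in its value was not tested. Its ventricular level was 48.6, 54.4 and 84.8 CPM in controls and 86.6, 224 and 151 CPM in CUG960 libraries. Groups of 3 libraries were too small to look for single outlying libraries by a test.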

How the results depend on the processing

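Counts of endothelial genes past the threshold stayed within 1.5 times under DESeq2, RLE and upper quartile factors, no filter, at least 10 counts in every library and, for the genotype comparisons, all 12 libraries in a single fit. Without a fold limit 12 genes were called in atria and 12 in ventricles, and with a limit of 1.5 on the log2 scale the count was 0 in each. Scaled by library totals alone, 1 gene was called in ventricles (Apln, higher), with a median of -0.17, and the chamber medians were -0.086 in MHCrtTA and -0.28 in CUG960. Scaled to the 18 separate pan-endothelial genes, 0 were called in atria and 0 in the interaction, 2 in ventricles (Apln and Plvap, both higher) and 16 between CUG960 chambers, and the medians became 0.039 in atria, 0.043 in ventricles, 0.088 between MHCrtTA chambers and 0.0090 between CUG960 chambers. That scaling changed the sign of the chamber value for 13 of the 36 genes in MHCrtTA and 8 in CUG960, and of the genotype value for 19 in atria and 18 in ventricles, of which Nos3 in ventricles was lower by adjusted P with TMM scaling. Among chamber values past the threshold with either scaling these were Icam2 (0.014), Tek (0.60), Ednrb (0.59), Fli1 (0.030) and Cav1 (0.60) in MHCrtTA and Rasip1 (0.078), Flt4 (0.025) and Fli1 (0.061) in CUG960. The shift follows from its construction, since the scaling genes were themselves lower in atria (medians -0.78 and -0.82). Their genotype medians were also below 0, at -0.35 in atria and -0.38 in ventricles. Every gene moved alike, so the sign changes count only values close enough to 0 for the shift to cross it. The calls over all genes under these scalings are given above for the genotype and chamber comparisons. With the mouse as a replicate block the interaction called 2 genes, and the block ended 1 call among the MHCrtTA chamber differences. Leaving out 1 mouse gave 3 to 7 calls in atria, 0 to 3 in ventricles (0 without V119 and 1 without V334) and 0 to 0 in the interaction, and medians of -0.43 to -0.27 in atria, -0.30 to -0.25 in ventricles and 0.026 to 0.23 in the interaction. Unless stated, the cause of a change was not tested. Retn, with 7 to 43 counts per ventricular library, was shallow, as were Plin1, Dbh, Esm1 and Exoc3l2. With 3 mice per group small differences can be missed.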
